A study of Mus musculus with 12 samples.

Results

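The reactive astrocyte gene set is a list of 32 genes that mouse astrocytes are known to switch on after injury or inflammation. The members were taken by gene name, with earlier results of these data known, and each of the 32 matched 1 of the 55401 gene rows of the deposited counts. Their RNA was followed through 12 libraries of astrocytes sorted from mouse brain, 3 libraries in each of 4 groups. The groups were cortex CD51+, cortex CD51-, hippocampus CD51+ and hippocampus CD51-. CD51 is integrin alpha-v, the product of Itgav. All groups came from mice in which Flp recombinase is expressed from the CD51 locus and a CAG-driven tdTomato at Rosa is switched on by Flp. CD51+ cells carried tdTomato and GFP, and CD51- cells carried GFP without tdTomato. What drives GFP, and the age, sex and strain of the mice, are not given in the sources used here, and no injury or treatment is named. The labels do not say that replicates are separate animals, so p-values measure the spread between these libraries, which may be technical. Groups follow the titles, but the library names read G for CD51+ titles and GT for CD51- titles. If GT stood for cells with GFP and tdTomato, the classes would be exchanged and each difference between them would take the opposite sign.

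Reactive astrocytes are astrocytes that have answered damage, infection or inflammation by changing their gene expression and shape. In the scheme used here, pan-reactive genes rise after both kinds of injury, the neuroinflammation genes rise mainly after systemic inflammation, and the ischaemia genes mainly after stroke. The inflammatory form can be evoked in culture by Il1a, Tnf and C1q, which are made largely by microglia, the resident macrophages of the brain. Cytokines of the Il6 family act through gp130 and Stat3, and Il1 and Tnf act through NF-kappa-B. Several of the same genes are also used by microglia and other immune cells, so that their RNA in sorted material need not come from astrocytes.

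The windows around the start sites of 4 members are given for orientation: Cxcl10 and Gbp2, which each held an AP-1, a kappa-B and an interferon-response motif, Srgn, which had no count in CD51+, and Serpina3n, which moved the other way. Each is 300 bases of the gene's strand from RefSeq (GRCm38.p6), and capitals mark motif matches. Cxcl10 lies at chr5:92348840-92349139 (minus strand), Gbp2 at chr3:142620413-142620712 (plus), Srgn at chr10:62527396-62527695 (minus) and Serpina3n at chr12:104406458-104406757 (plus).
Cxcl10: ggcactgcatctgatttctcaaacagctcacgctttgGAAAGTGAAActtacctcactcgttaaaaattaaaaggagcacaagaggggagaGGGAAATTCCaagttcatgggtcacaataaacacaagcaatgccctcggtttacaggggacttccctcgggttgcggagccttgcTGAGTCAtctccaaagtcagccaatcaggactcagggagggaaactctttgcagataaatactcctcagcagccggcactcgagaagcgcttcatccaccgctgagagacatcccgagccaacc
Gbp2: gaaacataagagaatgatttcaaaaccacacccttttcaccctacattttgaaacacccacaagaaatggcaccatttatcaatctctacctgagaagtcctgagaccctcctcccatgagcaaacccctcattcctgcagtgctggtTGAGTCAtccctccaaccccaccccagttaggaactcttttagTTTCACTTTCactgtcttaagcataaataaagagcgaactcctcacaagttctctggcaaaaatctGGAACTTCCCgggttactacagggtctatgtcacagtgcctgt
Srgn: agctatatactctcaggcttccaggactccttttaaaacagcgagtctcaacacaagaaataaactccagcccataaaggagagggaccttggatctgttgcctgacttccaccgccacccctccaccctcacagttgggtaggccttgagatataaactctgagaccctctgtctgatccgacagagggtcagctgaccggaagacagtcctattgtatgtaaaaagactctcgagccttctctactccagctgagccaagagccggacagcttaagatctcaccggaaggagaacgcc
Serpina3n: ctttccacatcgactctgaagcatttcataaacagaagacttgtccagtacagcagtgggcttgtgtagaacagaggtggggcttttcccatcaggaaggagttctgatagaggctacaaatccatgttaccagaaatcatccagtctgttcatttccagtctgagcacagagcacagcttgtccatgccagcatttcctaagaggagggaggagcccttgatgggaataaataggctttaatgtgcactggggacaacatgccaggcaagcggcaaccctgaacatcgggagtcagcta
In both Cxcl10 and Gbp2 the capitals are an AP-1 motif (TGANTCA), a kappa-B motif (GGGANNTTCC) and an interferon-response motif (ISRE, GAAANNGAAA), each searched on both strands. None of these, nor a STAT motif (TTCNNNGAA), a CRE (TGACGTCA) or a PU.1 motif (GAGGAAGT), was spelled in the windows of Srgn and Serpina3n, or in that of Ptgs2. Of the 32 members, 26 had a window in the table. AP-1 was present in 5 of the 26 (19.2%) and in 7.89% of all 27025 windows. The kappa-B motif was present in 3 of 26 (11.5%) against 1.47% of all windows, and the ISRE in 4 of 26 (15.4%) against 3.5%. STAT was present in 3 of 26 (11.5%) against 8.35%, and CRE and PU.1 in 0 of 26 against 1.85% and 3.25%. A match is a run of letters and does not show binding.

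Library totals were 4.35e6 to 12.85e6 counted read pairs, and mitochondrial genes took 36.5% to 71.1% of the counts in CD51+ libraries and 20.2% to 38.6% in CD51- libraries. Levels are given as CPM, counts scaled to 1e6 per library after TMM scaling of the library sizes. Itgav, the gene that marks the sort, did not differ detectably between CD51+ and CD51- in the average over regions (log2 fold change 0.43 ± 0.39, edgeR quasi-likelihood adjusted p = 0.464, n = 6 libraries a class). The 18 astrocyte markers summed to 45600 to 71700 CPM in CD51+ libraries and to 4380 to 15800 in CD51- libraries, and none was at 0 in any group. The 14 microglial markers summed to 231 to 1900 CPM in CD51+ libraries and 6120 to 13500 in CD51- libraries, with Aif1 at 0 in cortex CD51+. Oligodendrocyte markers (12 genes) summed to 1250 to 4970 CPM in CD51+ and 6910 to 64000 in CD51-, with Mag at 0 in cortex CD51+. The oligodendrocyte sum was above the astrocyte sum in all 3 cortex CD51- libraries and in replicates 1 and 2 of hippocampus CD51-. Mbp and Mobp made up most of that sum (24000 and 7460 of 33800 CPM in cortex CD51- replicate 1). Not every marker of the list went this way: in hippocampus the mean of Cnp was 145 CPM in CD51+ and 82.7 in CD51-. By these sums, the astrocyte label of both CD51- groups is not borne out by marker RNA alone. Border macrophage markers (6 genes) summed to 0 to 18.4 CPM in CD51+ and 96.7 to 424 in CD51-. Lyve1 and Cd163 of that list were at 0 in both CD51+ groups, and F13a1 was at 0 in hippocampus CD51+. The 10 early-response genes, such as Fos and Egr1, summed to 128 to 428 CPM in CD51+ and 6330 to 18000 in CD51-. The sorted CD51- material was thus poorer in astrocyte RNA and richer in microglial, oligodendrocyte and early-response RNA, and these differences accompany every CD51 result below.

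**Figure D1:**
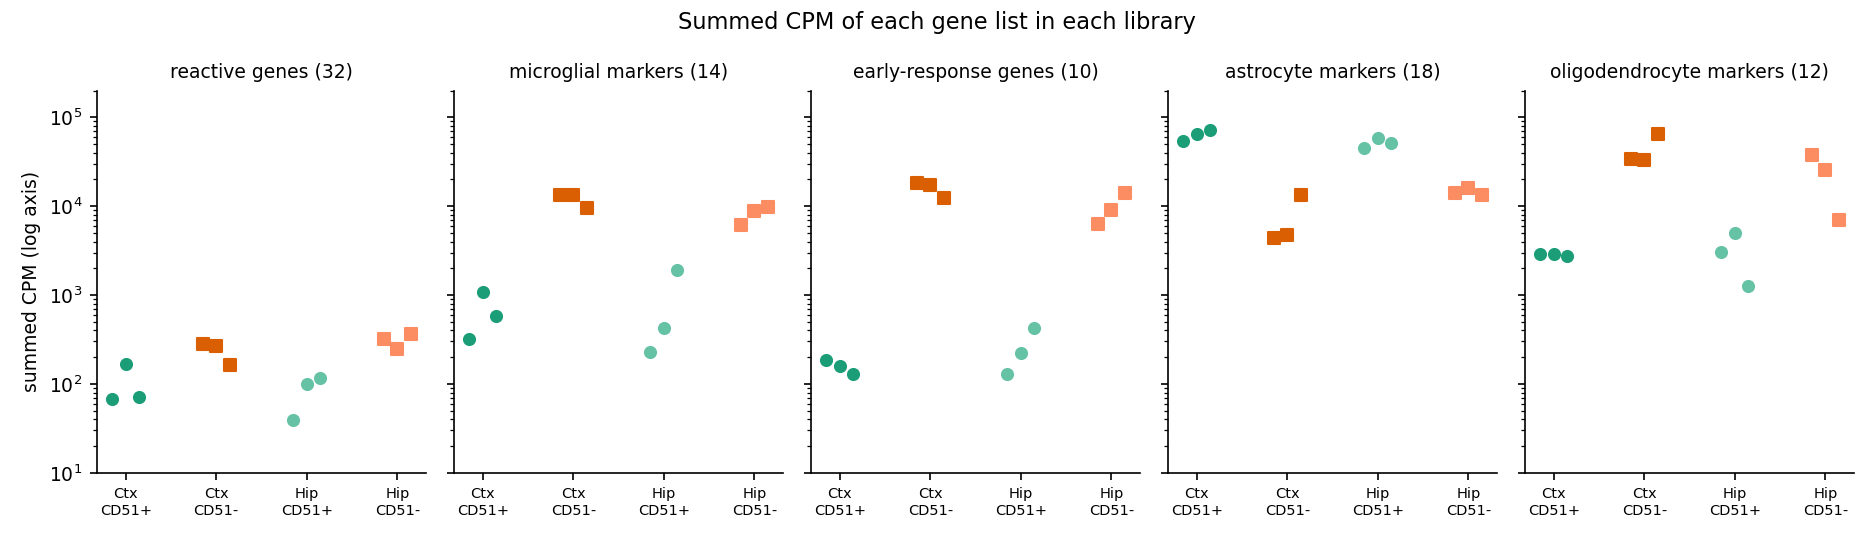
Summed CPM (log axis) of 5 gene lists in each of the 12 libraries, 1 point a library, by region and CD51 class. The 32 reactive genes summed to 38.8 to 167 CPM in CD51+ and 163 to 365 in CD51- libraries, a smaller gap than that of the microglial or early-response lists.

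Reactive genes made up a small part of every library. All 32 together reached 67.7, 167 and 71 CPM in cortex CD51+ and 282, 264 and 163 CPM in cortex CD51-. In hippocampus they reached 38.8, 100 and 115 CPM in CD51+, against 323, 246 and 365 CPM in CD51-. The sum was lower in every hippocampus CD51+ library than in every hippocampus CD51- library, whereas in cortex the highest CD51+ library exceeded the lowest CD51- library. Tm4sf1 alone gave 99.1 of the 167 CPM in that cortex CD51+ library, replicate 2.

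Detection was sparse. A count was found for 29 of the 32 members, and 17 passed the filter on low counts and were tested: 7 of 11 pan-reactive, 5 of 10 neuroinflammation and 5 of 11 ischaemia genes. Only C4b had a count in all 12 libraries, and 16 members had one in at least 6. Between 7 and 16 members had a count in a CD51+ library, and between 11 and 21 in a CD51- library. Of the 29, 13 had over 50% and 6 had over 90% of their counts in 1 library. The median share of counts in the top library was 36.3% for the tested members, 39.7% for the 8319 tested genes with totals in the same range and 19.6% for the astrocyte markers.

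The 15 members that were not tested include several genes that usually define the reactive state. Steap4 (a metalloreductase), Sphk1 (a kinase that makes sphingosine-1-phosphate) and Slc10a6 (a sulfated steroid transporter) had no count in any library, where 3 counts correspond to 0.246 to 0.688 CPM. Lcn2, a secreted siderophore-binding protein, had 3 counts in all, each in a CD51- library. Timp1, an inhibitor of metalloproteinases, had 1 count, in hippocampus CD51+ replicate 1. C3, the central complement component, had 21 counts: 9 in hippocampus CD51+ replicate 1, 8 and 3 in hippocampus CD51- replicates 2 and 3, and 1 in cortex CD51- replicate 1. For these genes a difference between classes was not detectable at this depth. No molecular identifiers were used, so every floor and interval given covers counting error only.

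Most of the other untested members rested on 1 library. Fbln5, an elastic-fibre protein, had 878 counts, 93.1% of them in hippocampus CD51- replicate 3 (74 CPM). The other libraries of that group had none, hippocampus CD51+ held 0, 8.05 and 0.168 CPM, and the cortex libraries had none. Amigo2, an adhesion protein, had 84.6% of its 149 counts in hippocampus CD51+ replicate 2 (16.9 CPM). The other hippocampus CD51+ libraries held 1.84 and 0.67 CPM of it and the hippocampus CD51- libraries none, so these groups did not overlap. Iigp1, an interferon-inducible GTPase, had 88.4% of 198 counts in hippocampus CD51- replicate 3 (15.8 CPM). S100a10, an annexin partner, had 68.5% of 108 counts in that same library. Aspg (an asparaginase, 71 counts), Serping1 (the C1 inhibitor, 33), B3gnt5 (a glycolipid synthase, 23) and Tgm1 (a transglutaminase, 9) were each counted in 1 library. Ptx3, a pentraxin, was spread more evenly, with 10 counts over 6 libraries. Its hippocampus groups did not overlap either, on 2 counts in each CD51+ library against 1, 0 and 0 in CD51-.

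**Figure D2:**
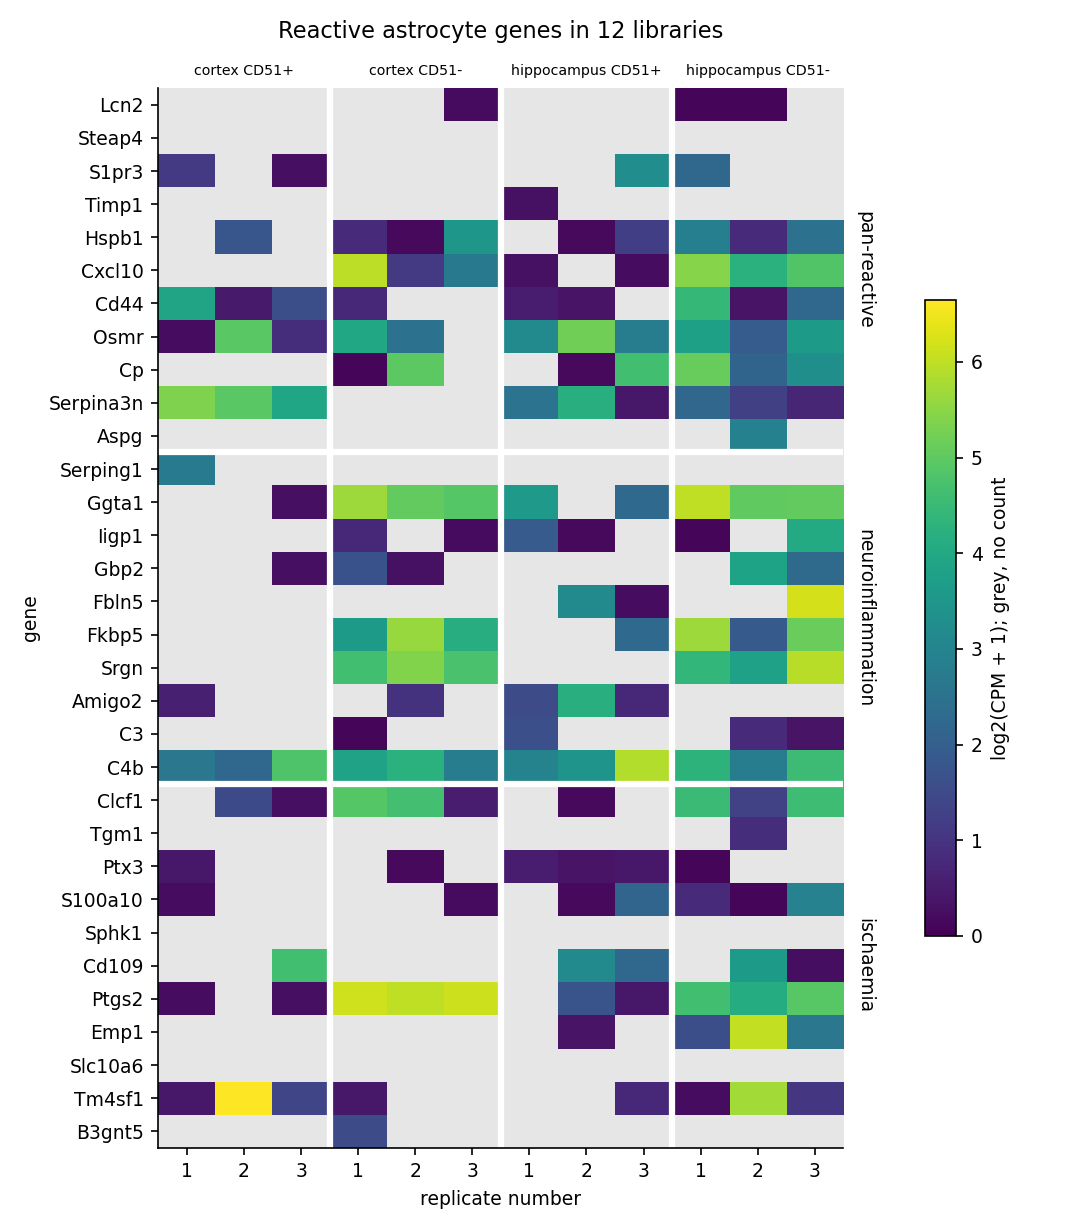
Levels of the 32 members in the 12 libraries as log2(CPM + 1), grouped by list, with grey where no count was found. Most rows have isolated bright cells, C4b is counted in all 12 libraries, and Srgn, Ptgs2 and Ggta1 form blocks in the CD51- columns.

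Averaged over regions, 8 of the 17 tested members differed between classes: 7 were lower and 1 was higher in CD51+ by edgeR at an adjusted p under 0.05. Lower were Srgn, Ptgs2, Cxcl10, Ggta1, Fkbp5, Clcf1 and Gbp2, and higher was Serpina3n. Over all 12613 genes tested, 13.9% were lower and 8.87% were higher in this contrast. In cortex 5 members were lower (Ptgs2, Srgn, Ggta1, Cxcl10, Fkbp5; 6.27% of all genes) and 1 was higher (Serpina3n; 5.05%). In hippocampus 1 was lower (Srgn; 2.7% of all genes) and none was higher (0.618%). A further 4 members in cortex and 7 in hippocampus had an unadjusted p under 0.05 without passing. By list, the calls in the class average were 1 lower and 1 higher of 7 pan-reactive genes, 4 lower of 5 neuroinflammation genes and 2 lower of 5 ischaemia genes. The median log2 fold change of the tested members was -2.16 in cortex, -4.48 in hippocampus and -3.86 in the average, beside -0.03, -0.22 and -0.14 for all genes tested. In bulk material, fewer cells of a type and less RNA per cell cannot be told apart.

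By non-overlap of libraries, 5 tested members were lower in every cortex CD51+ library than in every cortex CD51- library (16.6% of all genes) and 1 was higher (15.1%). In hippocampus 6 tested members were lower (Cxcl10, Ggta1, Srgn, Clcf1, Ptgs2, Emp1; 16.7% of all genes) and none was higher (10.5%). Across both regions, with 6 libraries against 6, Cxcl10, Ggta1, Srgn and Ptgs2 did not overlap and were lower in CD51+ (6.98% of all genes), and no tested member was higher (3.35%).

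Among secreted signals, Cxcl10, an interferon-induced chemokine that draws T cells, was nearly absent from CD51+ libraries. It had 0 CPM in all 3 cortex CD51+ libraries and 0.229, 0 and 0.168 CPM in hippocampus CD51+. The CD51- libraries held 62.6, 1.2 and 5.4 CPM in cortex and 42.1, 18.1 and 27.5 CPM in hippocampus. The groups did not overlap in either region, although the cortex CD51- level rested mainly on replicate 1. Pooled counts were at least 182-fold lower in cortex CD51+ (0 against 789 counts, floor of 3 counts over the group) and 265-fold lower in hippocampus CD51+ (2 against 1012, 95% counting interval 73.1 to 2190). By edgeR the adjusted p was 0.00109 in the average, 0.0159 in cortex and 0.0744 in hippocampus. Leaving out replicate 1 of cortex CD51- ended the cortex call (adjusted p = 0.0785 by edgeR), as did leaving out replicate 2 or 3 of cortex CD51+ (0.0504 and 0.0505).

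Ptgs2, cyclooxygenase-2, which makes prostaglandin precursors, was the steadiest of the lower genes in cortex. Cortex CD51- libraries held 70.7, 63.5 and 69.4 CPM (67.9 ± 3.84, SD, n = 3), and cortex CD51+ libraries 0.168, 0 and 0.203 CPM. Hippocampus CD51- libraries held 23.9, 16.2 and 29.1 CPM, and hippocampus CD51+ libraries 0, 2.28 and 0.335 CPM. All CD51+ libraries were below all CD51- libraries in both regions. The log2 fold change was -6.84 ± 1.25 in the average (edgeR adjusted p = 0.000475) and -4.66 ± 1.57 in hippocampus (adjusted p = 0.11). In cortex 2 counts stood against 1844, a ratio of 637 (interval 176 to 5260, edgeR adjusted p = 0.00442).

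Clcf1, a cytokine of the ciliary neurotrophic factor family, was lower in the average but overlapped in cortex. It was 28.9, 24.1 and 0.438 CPM in cortex CD51- and 0, 1.8 and 0.203 CPM in cortex CD51+. In hippocampus CD51- it was 21.9, 1.49 and 23.1 CPM, above 0, 0.134 and 0 CPM in CD51+. Replicate 3 of cortex CD51- was within the CD51+ range. In the average Clcf1 was lower by a log2 fold change of -6.28 ± 1.75 (edgeR adjusted p = 0.0132), and neither region passed alone (adjusted p = 0.155 in cortex and 0.112 in hippocampus).

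Among the neuroinflammation genes, Srgn showed the cleanest split. Srgn encodes serglycin, the core protein of a granule proteoglycan best known from blood-derived cells. It had no count in any of the 6 CD51+ libraries. The CD51- level was 23.8, 40.9 and 25.5 CPM in cortex and 20, 13 and 59.9 CPM in hippocampus. The pooled level was at least 367-fold lower in CD51+ (0 against 1842 counts), at least 184-fold in cortex and at least 182-fold in hippocampus. The edgeR adjusted p was 0.000246 in the average, 0.00846 in cortex and 0.0184 in hippocampus. The hippocampus call was lost on leaving out any of its 3 CD51+ libraries (adjusted p = 0.0635, 0.0767 and 0.0616) or CD51- replicate 3 (0.0623).

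Ggta1, which adds terminal alpha-galactose to glycans, was 50.3, 32.4 and 28.7 CPM in cortex CD51- and 63, 31.4 and 32.4 CPM in hippocampus CD51-. It was 0, 0 and 0.203 CPM in cortex CD51+ and 11, 0 and 3.85 CPM in hippocampus CD51+. The groups did not overlap in either region, but some RNA was present in 2 hippocampus CD51+ libraries. The log2 fold change was -6.03 ± 1.34 in the average (edgeR adjusted p = 0.00287) and -3.10 ± 1.60 in hippocampus (adjusted p = 0.303). In cortex 1 count stood against 1063, a ratio of 734 (interval 131 to 29000, edgeR adjusted p = 0.00996).

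Fkbp5, a co-chaperone of the glucocorticoid receptor, was 11.4, 47.8 and 16.5 CPM in cortex CD51- and had no count in cortex CD51+. In hippocampus it was 50.4, 2.69 and 34.1 CPM in CD51-, against 0, 0 and 3.85 CPM in CD51+. Cortex groups did not overlap, while hippocampus CD51+ replicate 3 was above CD51- replicate 2. Over both regions 23 Fkbp5 counts in CD51+ stood against 1667 in CD51-, a ratio of 43.3 (interval 28.8 to 68.5), with an edgeR adjusted p of 0.00505 in the average. In cortex the pooled level was at least 149-fold lower in CD51+ (0 against 647 counts, edgeR adjusted p = 0.0219), a call lost on leaving out any of the 3 cortex CD51+ libraries (adjusted p = 0.0571, 0.0592 and 0.0574).

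Gbp2, an interferon-induced guanylate-binding protein, was lower in the average on few libraries. Most of its counts came from hippocampus CD51- replicate 2 (13.5 CPM) and replicate 3 (3.89 CPM), and replicate 1 had none. Cortex CD51- libraries held 2.19, 0.24 and 0 CPM, and 1 count was found in all 6 CD51+ libraries. That count stood against 216 in CD51-, a ratio of 129 (interval 22.9 to 5120, edgeR adjusted p = 0.0392 in the average). This call was lost in 11 of 13 fits that left out libraries and in 4 of 9 other alternatives, with edgeR, DESeq2 or limma-voom adjusted p from 0.0376 to 0.187 over all of them.

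**Figure D3:**
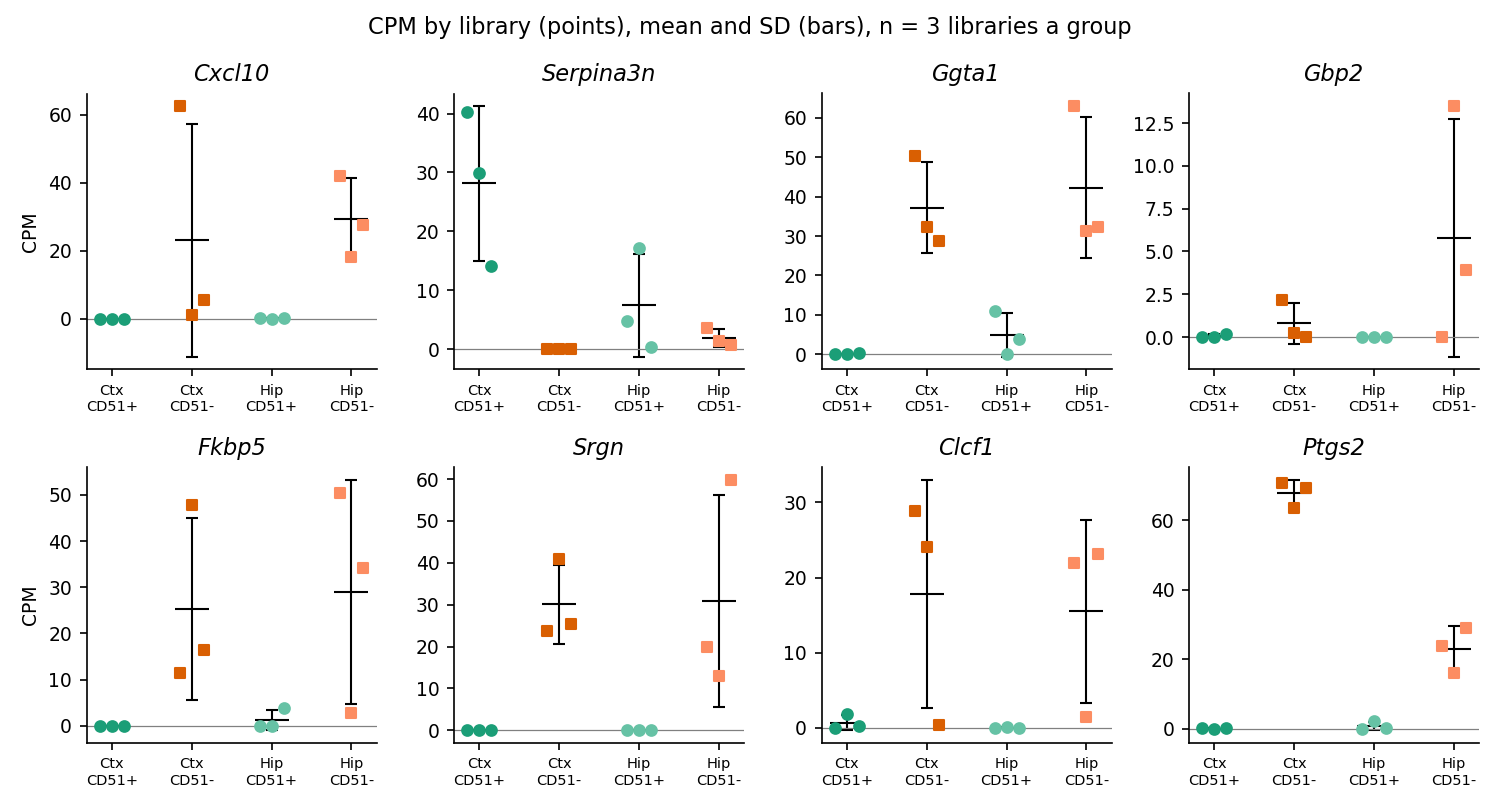
CPM of the 8 members that passed the test in a CD51 contrast, 1 point a library, with the mean and SD of 3 libraries as bars and a separate axis for each gene. Ptgs2, Srgn and Ggta1 are high in all 6 CD51- libraries, and Serpina3n is highest in cortex CD51+ and absent from cortex CD51-.

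Serpina3n, a serine protease inhibitor that is among the most used markers of reactive astrocytes, was the only member that edgeR called higher in CD51+ (DESeq2 called 2). It was 40.3, 29.9 and 14.2 CPM in cortex CD51+ and had no count in cortex CD51-. In hippocampus it was 4.82, 17.2 and 0.335 CPM in CD51+, against 3.61, 1.39 and 0.634 CPM in CD51-. Every cortex CD51+ library was above every cortex CD51- library, but the hippocampus groups overlapped. In cortex the pooled level was at least 262-fold higher in CD51+ (543 against 0 counts, edgeR adjusted p = 0.0152). Over both regions 694 counts stood against 66, a ratio of 17.6 (interval 13.7 to 23), and the edgeR adjusted p in the average was 0.00827. In hippocampus the log2 fold change was 1.98 ± 1.86 (edgeR adjusted p = 0.661). The difference between regions did not pass by edgeR's interaction term (adjusted p = 0.217). Of 6 listed near relatives in the same mouse gene cluster, Serpina3m, Serpina3i, Serpina3g, Serpina3h and Serpina3c had no count, and Serpina3f was counted in 1 cortex CD51- library.

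C4b, a complement component of the classical pathway, was 5.21, 3.72 and 27.4 CPM in cortex CD51+ and 13.2, 18.1 and 5.98 CPM in cortex CD51-. In hippocampus it was 6.88, 9.93 and 57.6 CPM in CD51+, against 18.8, 5.94 and 22.7 CPM in CD51-. The groups overlapped in both regions, and in CD51+ replicate 3 was the highest library each time. For C4b the average gave a log2 fold change of 0.30 ± 1.04 (edgeR adjusted p = 0.881), so a change of several-fold either way would lie within the error. C4b counts are uncertain because of the near-identical C4a, which had no count in CD51+ libraries and up to 2.19 CPM in CD51-.

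The cytokine receptor Osmr, the oncostatin M receptor subunit, was found in both classes. It was 0.168, 29.8 and 0.812 CPM in cortex CD51+ and 14.8, 4.67 and 0 CPM in cortex CD51-. In hippocampus it was 8.03, 36.2 and 5.86 CPM in CD51+, against 12.6, 2.79 and 11.3 CPM in CD51-. Replicate 2 was highest in both CD51+ groups, and the classes overlapped. Osmr gave a log2 fold change of 0.78 ± 1.38 in the average (edgeR adjusted p = 0.738).

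Several surface and acute-phase genes were high in 1 or 2 libraries of either class. Tm4sf1, a tetraspan membrane protein, was 0.336, 99.1 and 1.62 CPM in cortex CD51+ and 0.338, 0 and 0 CPM in cortex CD51-. In hippocampus it was 0, 0 and 0.67 CPM in CD51+, against 0.164, 51.8 and 1.09 CPM in CD51-. Replicate 2 thus held nearly all of it in both of those groups. The log2 fold change was 7.93 ± 2.82 in cortex and -6.20 ± 2.63 in hippocampus (edgeR adjusted p = 0.0655 and 0.192), and the interaction did not pass (adjusted p = 0.157).

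Emp1, an epithelial membrane protein, had no count in either cortex group. It was 0, 0.268 and 0 CPM in hippocampus CD51+ and 2.05, 64.1 and 5.25 CPM in hippocampus CD51-, without overlap but with 89% of all counts in CD51- replicate 2. The edgeR adjusted p in hippocampus was 0.143. Cp, ceruloplasmin, a copper-carrying ferroxidase, had no count in cortex CD51+ and 0.0844, 30.2 and 0 CPM in cortex CD51-. In hippocampus Cp was 0, 0.134 and 24 CPM in CD51+, against 33.3, 3.44 and 8.87 CPM in CD51-. Both pairs of groups overlapped, and the edgeR adjusted p for Cp was 0.0793 in cortex and 0.9 in hippocampus.

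The last 4 tested members were below 10 CPM on average in every group. Cd44, the hyaluronan receptor, was up to 13.8 CPM in cortex CD51+ and up to 20.6 CPM in hippocampus CD51-, each time in replicate 1. Cd109, a surface protein that modulates TGF-beta signalling, was 23.9 CPM in cortex CD51+ replicate 3 and at 0 in the other 2 libraries of that group (edgeR adjusted p = 0.0943 in cortex). Hspb1, a small heat shock protein, reached at most 10.4 CPM, in cortex CD51- replicate 3, and S1pr3, a sphingosine-1-phosphate receptor, 8.54 CPM, in hippocampus CD51+ replicate 3. No contrast of these 4 passed.

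Per kilobase of exon, the order of levels also differed between groups. In cortex CD51- the highest mean levels were 14.8 CPM per kilobase for Ptgs2, 13.7 for Srgn and 10.2 for Cxcl10. In hippocampus CD51- they were 14.1 for Srgn, 13 for Cxcl10 and 8.98 for Ggta1. In cortex CD51+ they were 13.6 for Serpina3n, 8.09 for Tm4sf1 and 2.13 for C4b, and in hippocampus CD51+ 4.36 for C4b, 3.61 for Serpina3n and 2.05 for Amigo2, most of whose counts came from 1 library. Neighbours in each of these orders overlapped in their libraries.

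**Figure D4:**
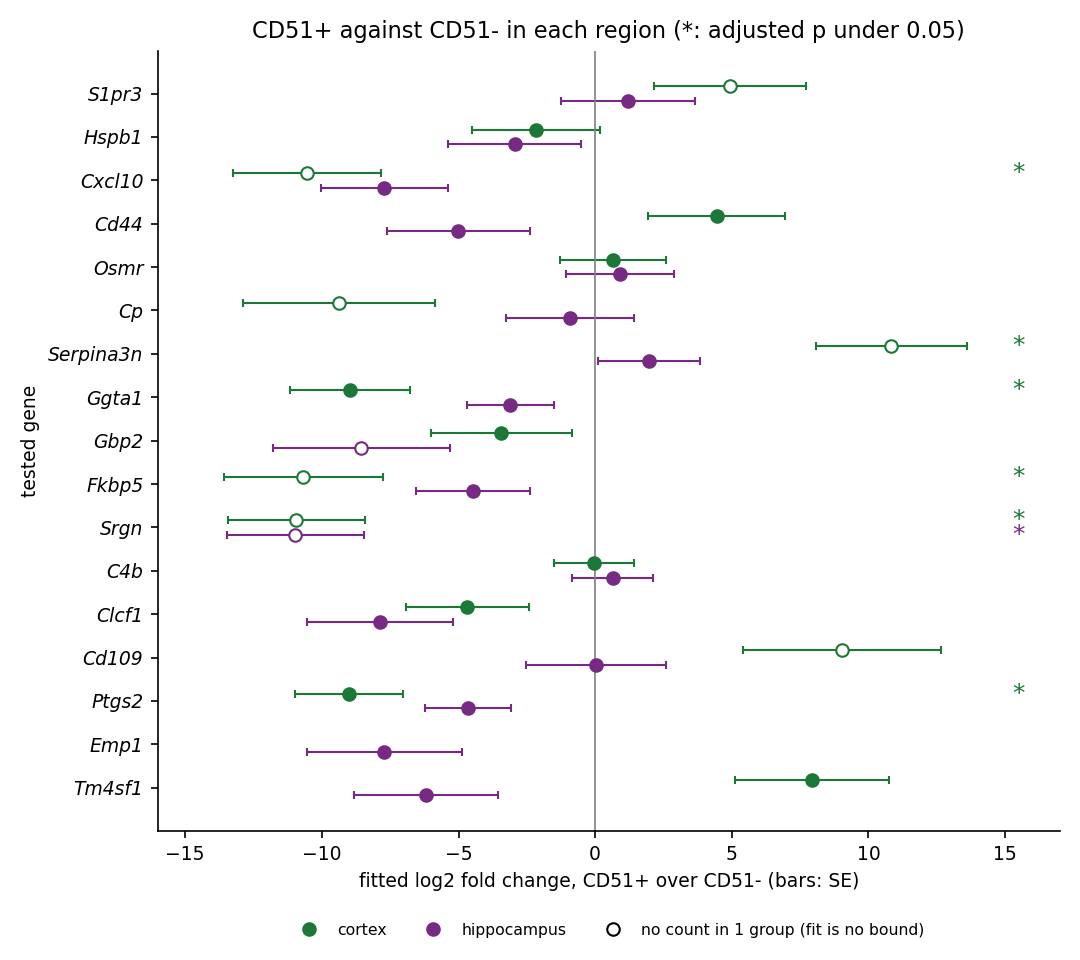
Fitted log2 fold changes (CD51+ over CD51-, bars SE) of the tested members in cortex and hippocampus, open where 1 group had no count and the fit is no bound, with stars for an edgeR adjusted p under 0.05. Cortex passes for Cxcl10, Serpina3n, Ggta1, Fkbp5, Srgn and Ptgs2, and hippocampus for Srgn.

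No member passed the test between regions. Averaged over classes, 0 of 17 tested members differed between hippocampus and cortex by edgeR (5 at an unadjusted p under 0.05; 0.19% of all genes were called). DESeq2 called 4 members higher in hippocampus, and limma-voom called 0. In the cortex class contrast DESeq2 also called more of all genes than edgeR (1472 against 637 higher, 1747 against 791 lower). For the difference between the class effects of the regions, edgeR called 0 of 17 (7 at an unadjusted p under 0.05; 0% of all genes). DESeq2 called 1 higher and 2 lower there, and limma-voom called 0. The call of Serpina3n or Ptgs2 in cortex and not in hippocampus therefore does not show that the regions differ.

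Microglial RNA moved with the class, so the members were set against it. In CD51- libraries pooled over regions, each member has a ratio to the counts of the 14 microglial markers. At those ratios the microglial counts of the CD51+ libraries would be accompanied by 86.5 Srgn, 123 Ptgs2, 84.5 Cxcl10, 119 Ggta1, 78.2 Fkbp5, 50.9 Clcf1, 36.3 Emp1 and 10.1 Gbp2 counts. The CD51+ libraries held 0, 21, 2, 72, 23, 16, 2 and 1, and the 95% counting interval of each observed count ended below the count at that ratio. In pooled counts these 8 genes were thus below the microglial ratio beyond counting error, which leaves out the spread between libraries. Il1a (34 counts against 2200), Tnf (4 against 216) and Cd14 (5 against 185) were below it too. C1qa was within counting error (397 against 374), with 243 of the 397 counts in cortex CD51+ replicate 2. Being below the ratio therefore does not set a member apart from microglial RNA. Single libraries went the other way: Ggta1 was 47.6 per 1000 microglial counts in hippocampus CD51+ replicate 1, above the 3.35 to 10.3 of the hippocampus CD51- libraries. Likewise Ptgs2 was 5.38 per 1000 in hippocampus CD51+ replicate 2, above 1.82 to 3.9. In hippocampus the 71 Ggta1 counts (interval 55.5 to 89.6) were within counting error of 81.9. Each library was also left out in turn, a check chosen after seeing the data. Srgn, Ptgs2, Cxcl10, Fkbp5 and Clcf1 were below the ratio in all 12 of these. Ggta1 came within counting error without cortex CD51+ replicate 2 (72 counts against 83.5), and without hippocampus CD51- replicate 2 so did Gbp2 (1 against 3.95) and Emp1 (2 against 4.61).

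The other 9 tested members had more counts in CD51+ libraries than that ratio gives. Any gene that fell less than the microglial counts lies above it. Hspb1 and Cp did so although their pooled levels were 4.63-fold and 3.29-fold lower in CD51+. The share of all genes above or below the ratio is not given, so these numbers are not read as a trait of the members. Serpina3n had 694 counts against 3.1 at the ratio, C4b 643 against 41.9, Osmr 577 against 24.5 and Tm4sf1 787 against 27. Cd109, Cp, Cd44, S1pr3 and Hspb1 were also above it in pooled counts. With each library left out in turn, Serpina3n, C4b, Osmr, Cd109 and S1pr3 were above the ratio all 12 times. This says little for S1pr3 and Cd109, whose CD51- counts came almost wholly from 1 library. All 45 S1pr3 counts were in hippocampus CD51- replicate 1, and 121 of 123 Cd109 counts in replicate 2. In CD51+, 51 of 59 S1pr3 and 118 of 199 Cd109 counts were also in 1 library. Nor was every single library above for Serpina3n and Osmr. Serpina3n was 0.177 per 1000 microglial counts in hippocampus CD51+ replicate 3, within the 0.0655 to 0.59 of hippocampus CD51-. Osmr was 0.522 in cortex CD51+ replicate 1, within the 0 to 1.11 of cortex CD51-. For C4b the lowest CD51+ library (3.41) was above the highest CD51- library (3.07). Without cortex CD51+ replicate 2, Tm4sf1 (14 counts against 19) and Hspb1 (9 against 7.17) were within counting error, as was Cd44 without cortex CD51+ replicate 1 (17 against 13.2). Without hippocampus CD51+ replicate 3, Cp was below the ratio (1 against 22.6). In cortex 6 members were below the ratio, 8 above and 3 within counting error, and in hippocampus 9 were below, 6 above and 2 within. The cortex ratio of S1pr3, Serpina3n and Cd109 was 0, for want of any CD51- count, so any CD51+ count put them above. Emp1 had no count in either cortex group, so its place within counting error carries no information. Cp was below in cortex and above in hippocampus, and Cd44 and Tm4sf1 were above in cortex and below in hippocampus.

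**Figure D5:**
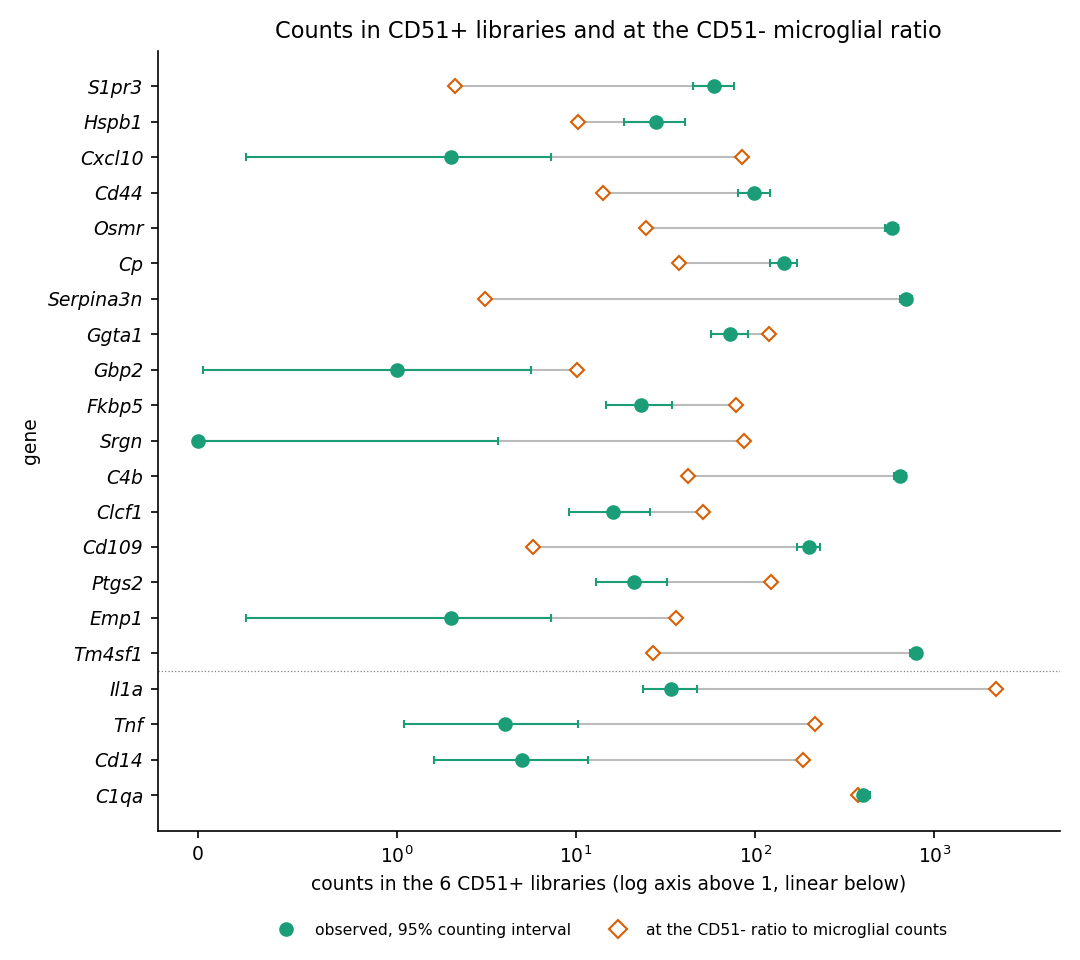
Counts in the 6 CD51+ libraries (circles, 95% counting interval) and counts expected at the CD51- ratio to microglial marker counts (diamonds), for the 17 tested members and 4 microglial genes below the dotted line. In these pooled counts C1qa is within counting error of its ratio (397 against 374, 243 of the 397 from cortex CD51+ replicate 2), 8 members and Il1a, Tnf and Cd14 lie below theirs, and 9 members lie above.

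Within a class, no relation of a member to the microglial sum passed the test. Members with a count in at least 4 libraries of a class gave 23 relations between log2(CPM + 1) and the log2 microglial sum. Pearson's r was above 0 in 6 of 15 relations in CD51- and 3 of 8 in CD51+. By exact permutation of the 720 pairings (two-sided), Benjamini-Hochberg adjusted p ranged from 0.89 to 0.971 for r, and the smallest was 0.803 for Spearman's rho. Ptgs2 in CD51- had r = 0.70 and rho = 0.66 (exact permutation p = 0.139 and 0.175, n = 6), and r = 0.68 without the 2 libraries farthest from the median. Srgn had r = 0.38 and rho = 0.66 (exact permutation p = 0.453 and 0.175, n = 6), and r = 0.09 without them. Ggta1 had r = -0.38 with all 6 and 0.95 without those 2, so its relation rests on which libraries are used. Each class holds libraries of both regions, and a value within a region would rest on 3 libraries.

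The RNAs of Il1a, Tnf and C1q, which can evoke the inflammatory form, were lower in the same contrast as the lower members. Il1a was 607, 1490 and 652 CPM in cortex CD51- and 473, 456 and 1100 CPM in hippocampus CD51-, against at most 5.74 CPM in any CD51+ library. Its log2 fold change in the average was -9.67 ± 1.01 (edgeR adjusted p = 7.12e-07). Tnf fell by 9.19 ± 1.29 on the log2 scale (adjusted p = 2.54e-05 by edgeR), and C1qa by 3.88 ± 0.94 (adjusted p = 0.0055). All 5 of Il1a, Tnf, C1qa, C1qb and C1qc were lower in CD51+ in the average (13.9% of all genes). Pooled over regions C1qa was near the microglial ratio, but it was above it in cortex (252 counts against 177) and below it in hippocampus (145 against 196), whereas Il1a (34 counts against 2200) and Tnf (4 against 216) were far below it. Most C1qa counts came from 1 library a region: 243 of 252 from cortex CD51+ replicate 2 and 128 of 145 from hippocampus CD51+ replicate 3.

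Of 20 receptor and signalling genes that relay these cues, 9 were lower and 2 higher in CD51+ in the average. Beside them, 13.9% of all genes tested were lower and 8.87% higher, so the 2 higher were near that share. Socs3, a feedback inhibitor and Stat3 target, was 71.2, 102 and 53.7 CPM in cortex CD51- and at most 5.23 CPM in CD51+ libraries (log2 fold change -6.76 ± 1.10, edgeR adjusted p = 0.000138). Nfkbia, the NF-kappa-B inhibitor that is itself induced by NF-kappa-B, was also lower (-5.03 ± 0.92, edgeR adjusted p = 0.000467). Stat3 itself fell by 1.49 ± 0.48 on the log2 scale (adjusted p = 0.0295 by edgeR). The receptors differed in direction: Tgfbr1 (-4.45 ± 0.48) and Il6ra (-7.64 ± 1.03) were lower, and Cntfr (2.13 ± 0.61) and Il1r1 (4.91 ± 1.66) were higher, with edgeR adjusted p of 1.13e-06, 1.68e-05, 0.0156 and 0.0359. Il6st, the shared gp130 subunit, and Lifr gave log2 fold changes of 0.13 ± 0.49 and -0.35 ± 0.52 (edgeR adjusted p = 0.892 and 0.682).

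Of 6 further genes of the reactive panel, Gfap, the intermediate filament most used to mark reactive astrocytes, was higher in CD51+. It was 11.8, 30.7 and 238 CPM in cortex CD51+ and 7.51, 0.24 and 1.31 CPM in cortex CD51-. In hippocampus Gfap was 210, 366 and 289 CPM in CD51+, against 26.4, 154 and 74.4 CPM in CD51-. The CD51+ libraries were above the CD51- libraries in both regions, and replicate 3 set much of the cortex level. For Gfap the log2 fold change was 3.34 ± 0.78 in the average (edgeR adjusted p = 0.00419), 4.93 ± 1.19 in cortex (0.00983) and 1.76 ± 1.04 in hippocampus (0.393). Vim, the other intermediate filament, gave -0.03 ± 0.85 (edgeR adjusted p = 1). Cd14 (-8.83 ± 1.25), H2-D1 (-4.48 ± 0.92) and H2-T23 (no count in cortex CD51+), of which Cd14 is a lipopolysaccharide co-receptor and the others are class I antigen-presentation genes, were lower (edgeR adjusted p = 2.86e-05, 0.00132 and 0.0251). Psmb8, an immunoproteasome subunit, was not tested.

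All 10 early-response genes were lower in CD51+ in the average, Egr1 by -6.58 ± 0.44 and Fos by -4.78 ± 0.71 (edgeR adjusted p = 9.88e-10 and 4.55e-05). The 7 lower members were thus lower in the same contrast as microglial markers (13 of 14 lower), border macrophage markers (6 of 6), oligodendrocyte markers (5 of 12) and early-response genes. This is a shared difference between the classes, and within a class no relation of a member to the microglial sum passed. Of all genes tested, 13.9% were lower and 8.87% higher in this contrast. All 18 astrocyte markers were higher in CD51+, as were Serpina3n and Gfap. The part of these shifts in the members' differences was not tested.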

How the data were processed

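RNA-seq libraries of sorted brain cells were made from 10 ng of RNA and read in pairs of 150 bases, per the labels' protocols. The deposited values are raw counts: per the file headers, they were made with featureCounts 2.0.4 from read pairs in exons of GENCODE vM25 genes, ignoring strand, so genes overlapping on opposite strands cannot be separated. Per the submitters' processing notes, STAR, mm10 and DESeq2 1.40.2 were used. Low input and amplification can concentrate a gene's counts in 1 library.

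Symbols came from a GENCODE vM21 table (55141 of 55401 IDs matched). Genes passing filterByExpr (minimum count 10, minimum total 15), 12613 in all, were tested with edgeR 4.0.16 under R 4.3.3 (quasi-likelihood F test, TMM, all 12 libraries, 4 groups, 5 contrasts, Benjamini-Hochberg at 0.05 over all genes). The common dispersion was 1.64. Dividing the size of the log2 fold change by the root of F gave the SE. The fit was also run on counts simulated from its own dispersions, which checks it under its own model only. Genes with no count in a group have a floor of 3 counts over the group in place of a fold, and genes with 1 to 3 counts a ratio with an exact 95% interval. Correlations were computed with SciPy 1.17.1.

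Members and lists were chosen with earlier results of these data known. Values in all libraries are given for members that passed a test or had a group mean of at least 10 CPM, and other members by range. From other lists, the genes with the lowest p and a few set inducers and filaments are named. Alternatives were DESeq2 1.42.0, limma-voom (limma 3.58.1), other scaling, filters and dispersion, mitochondrial genes left out, a replicate block, 1 region only, and each library left out. Replicate numbers were checked and gave no sign of pairing, but with this spread between libraries such a check can miss it.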

Additional observations from a re-analysis of the deposited data

How the results depend on the processing

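No test call of a member changed direction under any alternative run. Of members higher in CD51+ in cortex, DESeq2 and the fit with no filter called 2 in place of 1, and leaving out each library in turn gave 1 to 2. In the average DESeq2 called 2 higher in place of 1. Of members lower in CD51+, leaving out each library gave 3 to 6 in cortex, 0 to 2 in hippocampus and 6 to 8 in the average. In hippocampus, in place of 1, DESeq2 called 6, limma-voom 5 and the fit of that region alone 2. Between regions DESeq2 called 4 members higher in hippocampus and no filter 1, and for the interaction DESeq2 called 1 higher and 2 lower and no filter 1 lower. In cortex DESeq2 also called more of all 12613 genes, 1472 higher and 1747 lower, against 637 and 791 by the main fit. The extra member calls are therefore not read as a result about the members. The cause of these differences was not tested.

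With the replicate number as a block, 1 member was higher and 6 were lower in the average, Gbp2 being lost (adjusted p = 0.0761), and no other call changed. Same-numbered libraries of different groups correlated at -0.052 to 0.026 in 18 pairs of deviations from the group means, and 7 of 18 correlated best with their own number. Leaving out replicate 3 of both CD51+ groups, chosen after seeing the data, lost Clcf1 (adjusted p = 0.058) and Gbp2 (0.0973) in the average and Cxcl10 in cortex (0.0543). The median log2 fold change of all genes in the average was -0.14, 0.04 with upper-quartile scaling and -0.57 with no filter. With a pseudocount of 0.1, r with the microglial sum was above 0 for 6 of 15 members in CD51- and 4 of 8 in CD51+. Leaving out each library in turn, also chosen after seeing the data, gave 6 to 9 members below and 7 to 9 above the microglial ratio in pooled counts, Cp moving from above to below without hippocampus CD51+ replicate 3. Depth limits the 3 members with no count and the 2 with 1 to 3 counts in all.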
